A study of Mus musculus with 9 samples.

Results

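The transcription factor NRF2, its inhibitor KEAP1 and 8 antioxidant genes that NRF2 is known to activate were followed in mouse embryonic stem (ES) cells deprived of a single amino acid (AA). The 10 genes were *Nfe2l2* (which encodes NRF2), *Keap1*, *Nqo1*, *Srxn1*, *Txnrd1*, *Hmox1*, *Gsr*, *Prdx1*, *Txn1* and *G6pdx*, picked by symbol from the 20189 genes of the count table. All 10 were in the table and all 10 entered the tests. The cells were E14, a wild-type line of pluripotent mouse ES cells kept on gelatin with serum and leukemia inhibitory factor. They were starved of Thr (3 libraries) or of Cys (3 libraries) for 3 h, or kept as unstarved controls in the same medium with all AAs (3 libraries). Per the labels, the starvation medium of every group held dialyzed serum, leukemia inhibitory factor and the reducing agent β-mercaptoethanol, so the control cells carried these too. The labels' protocol names Arg and Leu as the omitted AAs, and the groups used here come from the sample titles. The starvations were done in triplicate, and the sources do not say whether the 3 samples of a group were separate cultures or wells of a single culture, so the p values measure the spread between these samples, which may be technical.

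NRF2 is made continuously, and in unstressed cells KEAP1 holds it to a ubiquitin ligase that sends it to the proteasome. Oxidants and electrophiles modify cysteines of KEAP1, NRF2 then builds up, pairs with small MAF proteins and binds antioxidant response elements in front of genes for thioredoxin, glutathione, NADPH, quinone and heme metabolism. Because this control acts on the protein, the transcript level of *Nfe2l2* is not a measure of NRF2 activity. Cys is also the AA that limits glutathione synthesis, and mouse ES cells depend on Thr catabolism.

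In Thr-starved cells *Nfe2l2* transcript was 2.03-fold that of unstarved cells and *Keap1* fell to 0.435 of its level, while 7 of the 8 target genes fell. *Srxn1* fell most among the 8, to 0.204 of its unstarved level. Of all genes tested, 31.9% fell with Thr starvation and 63.0% passed the test in either direction. In Cys-starved cells *Nfe2l2* rose 1.16-fold, *Keap1* and *G6pdx* did not pass the test, and 6 of the 8 target genes fell, led by *Txnrd1* at 0.591 of its unstarved level. Of all genes tested, 18.8% fell with Cys starvation and 36.3% passed the test in either direction. Of the 11410 genes with at least 5 CPM, 3475 fell. *Hmox1* was the target gene that rose, by 1.79-fold with Thr starvation and 2.04-fold with Cys starvation.

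The total count per library ran from 48763102 to 74962733. Levels are normalized counts in CPM, which corrects for the total count of a library, scaled between libraries by TMM, a method that assumes most genes differ little. Each of the 10 genes had between 325 and 61357 counts in a library, and the SD was between 0.0792% and 8.36% of the mean in the 30 combinations of gene and group. Differences were tested by edgeR's quasi-likelihood method over the 20143 genes that had any count, with Benjamini-Hochberg adjustment, and a gene was called at an adjusted p of 0.05 or less. Fold changes are on the log2 scale with their standard error (SE). Both starvations were set against the same 3 unstarved libraries, so these comparisons are not independent of each other. In bulk RNA, fewer cells expressing a gene and less RNA per cell cannot be told apart.

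All 12 ES cell markers were above 1 CPM in every group. With Thr starvation 5 of them rose and 7 fell, from *Utf1* (307 ± 7.93 to 95.1 ± 1.92 CPM) to *Klf4* (148 ± 2.43 to 267 ± 3.50 CPM), and with Cys starvation 3 rose and 9 fell, with log2 fold changes from -0.50 to 0.26. Their summed level, in which these opposite moves partly cancel, was 4981 to 5025 CPM in unstarved, 4629 to 4676 CPM in Cys-starved and 4861 to 4953 CPM in Thr-starved libraries. The 6 fibroblast markers measured, of 9 listed, summed to 17.9 to 22.3 CPM over all libraries. Of these, 4 averaged above 1 CPM in unstarved, 5 in Cys-starved and 3 in Thr-starved cells. The 11 markers of differentiating cells measured, of 12 listed, summed to 30.7 to 32.0 CPM in unstarved, 35.8 to 36.3 CPM in Cys-starved and 36.0 to 39.6 CPM in Thr-starved libraries. The part of these differences in the results was not tested.

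The promoters of the genes are shown first, because the antioxidant response element is the sequence through which NRF2 is known to act. RefSeq start sites on GRCm38.p6 gave the 250 bases upstream for 8 of the 10 genes, in 10 windows, of which 3 belong to *Txnrd1*. *Hmox1* and *Gsr* had no entry. The core of the antioxidant response element, TGACNNNGC, was searched on both strands, where N is any base. It was found in 1 window each of *Nfe2l2*, *Prdx1*, *Txnrd1* and *G6pdx*, and in 10.2% of 32536 distinct promoter windows of that length, with 1 chromosome left out. The 4 matches are printed with 10 bases on each side, 5′ to 3′ on the strand that reads TGACNNNGC, with the core in capitals.
Nfe2l2, chr2:75704885-75704913, - strand: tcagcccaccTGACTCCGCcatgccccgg
Prdx1, chr4:116685456-116685484, − strand: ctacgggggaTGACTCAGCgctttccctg
Txnrd1, chr10:82859104-82859132, − strand: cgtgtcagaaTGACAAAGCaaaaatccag
G6pdx, chrX:74428919-74428947, + strand: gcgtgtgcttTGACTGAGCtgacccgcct

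The matches lie 240, 133, 92 and 57 bases before the RefSeq starts of *Nfe2l2*, *Prdx1*, *Txnrd1* and *G6pdx*, counted from the first base of the match on the gene's strand. By the GENCODE span of the genes, those of *Nfe2l2* and *Prdx1* lie upstream of the gene. The matches of *Txnrd1* and *G6pdx* lie within it (chr10:82833951-82897712 and chrX:74409483-74429194). The related motif TGANTCA, which AP-1 factors bind and which reads the same on both strands, was present in 6.73% of the same distinct windows and in 2 of the 10 windows here. It occurred at 2 positions in *Srxn1* and at 2 in *Prdx1*, and 1 of the *Prdx1* matches lies inside the antioxidant response element core above. The motif TGATGNAAN, found in promoters of genes of the AA response, was present in 3.38% of the same distinct windows and in 0 of the 10. *Srxn1* and *Prdx1* are shown at length, as the gene that fell most with Thr starvation and the target gene that fell least. Capitals mark TGANTCA, and in *Prdx1* also TGACNNNGC, which there reads on the opposite strand. The stretches stop before the start of the GENCODE gene.
Srxn1, chr2:152105274-152105515, + strand: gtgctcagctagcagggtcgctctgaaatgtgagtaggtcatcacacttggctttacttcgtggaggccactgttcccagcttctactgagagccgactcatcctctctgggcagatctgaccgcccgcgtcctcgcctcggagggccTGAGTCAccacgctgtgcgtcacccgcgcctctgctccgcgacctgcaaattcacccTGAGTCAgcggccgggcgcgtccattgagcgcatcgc
Prdx1, chr4:116685349-116685543, + strand: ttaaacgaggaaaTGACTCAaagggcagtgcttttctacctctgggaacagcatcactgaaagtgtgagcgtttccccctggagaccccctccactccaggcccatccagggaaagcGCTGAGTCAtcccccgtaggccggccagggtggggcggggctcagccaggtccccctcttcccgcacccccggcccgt

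These letters are a description of the windows and do not show binding. Only these windows and this form of the core were searched. A window without a match therefore does not show that the gene lacks an element. The 4 genes with a core match included *Nfe2l2*, which rose in both starvations, and *Prdx1* and *Txnrd1*, which fell in both.

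*Nfe2l2* (ENSMUSG00000015839, chr2:75675513-75704641, − strand, GRCm38) stood at 68.5, 70.9 and 66.7 CPM in the 3 unstarved libraries, at 79.4, 78.1 and 80.9 CPM in the Cys-starved libraries and at 135, 139 and 144 CPM in the Thr-starved libraries. The 3 groups did not overlap, and the Thr-starved libraries were highest. Its log2 fold change was 1.02 ± 0.031 (SE, n = 3 per group) with Thr starvation by edgeR (adjusted p = 6.7e-18). With Cys starvation it was 0.21 ± 0.031 (edgeR, adjusted p = 1.3e-05). The direct comparison put Thr-starved cells 1.76-fold above Cys-starved cells (log2 fold change 0.81 ± 0.030, edgeR, adjusted p = 4.0e-16).

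*Keap1* (ENSMUSG00000003308, chr9:21229730-21239361, − strand) encodes the adaptor that presents NRF2 to the CUL3 ubiquitin ligase. It was at 26.7, 26.6 and 24.9 CPM in unstarved, 24.2, 26.1 and 26.0 CPM in Cys-starved and 11.2, 10.9 and 11.8 CPM in Thr-starved libraries. The unstarved and Cys-starved ranges overlapped, and every Thr-starved library was below both groups. With Thr starvation its log2 fold change was -1.20 ± 0.053 (edgeR, adjusted p = 4.9e-15). With Cys starvation the gene did not pass the test at -0.04 (95% interval -0.14 to 0.06, edgeR, adjusted p = 0.59). The antisense gene *Gm16754* overlaps 510 bases of *Keap1* exons, or 10.9% of them, and held a mean of 0.348 CPM or less in each group. The kit keeps strand, but the strand setting of the counting is not given in the sources used here.

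The opposite movement of the regulator and its inhibitor with Thr starvation shows in their ratio within a library. This ratio does not depend on the scaling between libraries. With Cys starvation *Nfe2l2* passed the test and *Keap1* did not. Per exon length, as RPKM (CPM divided by the exon length in kilobases), *Nfe2l2* was 3.26 ± 0.0735 times *Keap1* in unstarved libraries (SD, n = 3). The ratio was 3.87 ± 0.179 in Cys-starved and 15.2 ± 0.432 in Thr-starved libraries. The lowest Thr-starved library stood at 14.9 and the highest Cys-starved library at 4.06. The ratio was not corrected for trends with GC content and transcript length. With these removed, the log2 fold changes with Thr starvation were 0.94 for *Nfe2l2* and -0.90 for *Keap1*, beside 1.02 and -1.20.

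**Figure D1:**
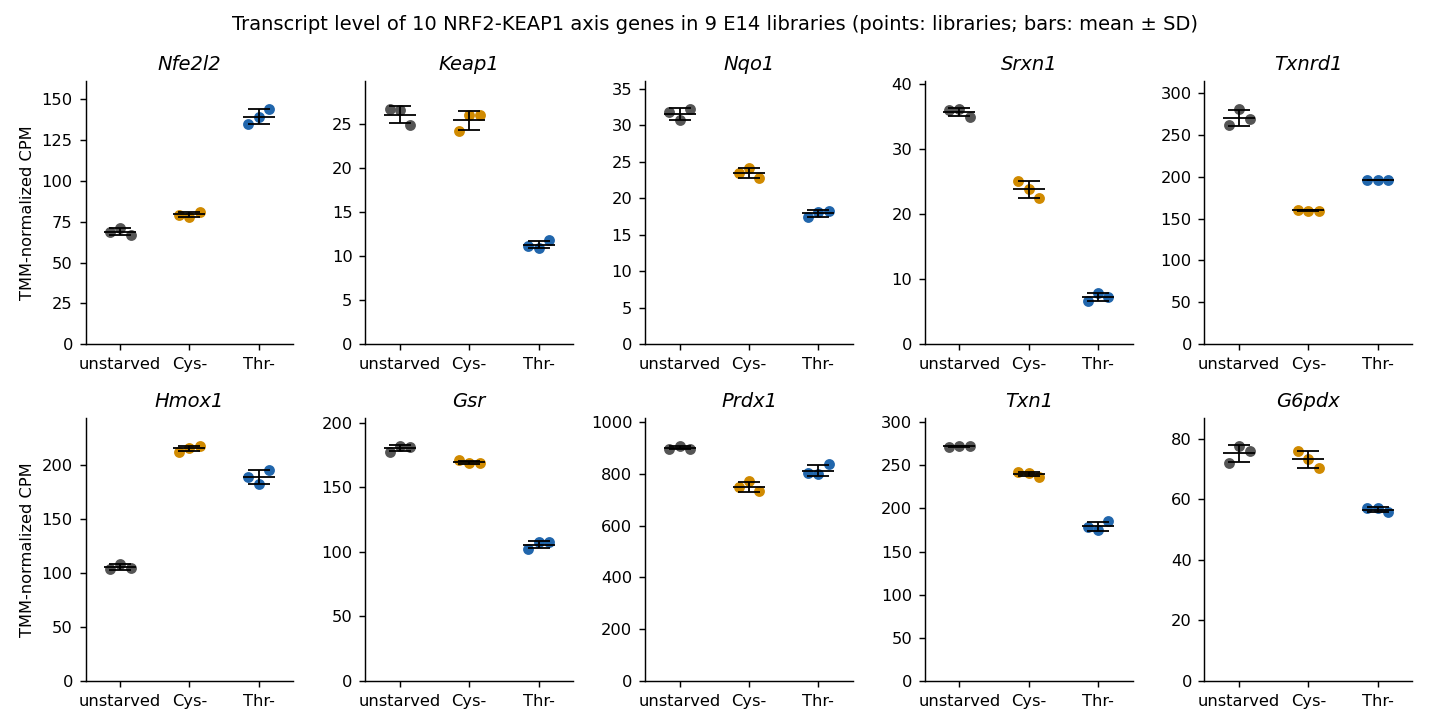
Level of each of the 10 genes in TMM-normalized CPM (linear axes from 0, scaled per gene) in the 3 unstarved (grey), 3 Cys-starved (amber) and 3 Thr-starved (blue) libraries, with bars for the mean ± SD. *Nfe2l2* was highest and *Keap1* lowest in Thr-starved libraries, *Hmox1* was above the unstarved level in both starvations, and *Txnrd1* was lowest in Cys-starved libraries.

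*Srxn1* (ENSMUSG00000032802, chr2:152105516-152111376, + strand) encodes sulfiredoxin, which uses ATP to repair overoxidized peroxiredoxins. Unstarved libraries held 36.1, 36.2 and 35.0 CPM, Cys-starved libraries 25.1, 23.9 and 22.5 CPM, and Thr-starved libraries 6.63, 7.84 and 7.33 CPM. The groups formed 3 separate levels. The log2 fold change was -2.30 ± 0.058 with Thr starvation (edgeR, adjusted p = 3.3e-19) and -0.58 ± 0.050 with Cys starvation (edgeR, adjusted p = 3.8e-09). Among the 11410 genes averaging 5 CPM or more, 0.21% had this log2 fold change or a lower one with Thr starvation and 0.561% with Cys starvation, *Srxn1* included. Between the starvations the difference was -1.71 ± 0.060 (edgeR, adjusted p = 1.2e-16).

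*Prdx1* (ENSMUSG00000028691, chr4:116685544-116700822, + strand), the peroxiredoxin that reduces hydrogen peroxide in the cytosol, was at 896, 907 and 897 CPM in unstarved libraries. It was at 749, 770 and 732 CPM in Cys-starved and at 803, 798 and 836 CPM in Thr-starved libraries. Both starved groups lay below every unstarved library. The log2 fold changes were -0.15 ± 0.021 with Thr starvation (edgeR, adjusted p = 1.7e-06) and -0.26 ± 0.021 with Cys starvation (edgeR, adjusted p = 1.4e-09). Thr-starved cells were above Cys-starved cells by 0.11 ± 0.021 on the log2 scale (edgeR, adjusted p = 4.8e-05), a direction that turned to -0.04 when trends with GC content and transcript length were removed. The processed pseudogenes *Gm21399* and *Gm7204* match 26.0% of the longest *Prdx1* transcript at 98.3% and 97.5% identity and held 101 and 59.3 CPM in unstarved cells, so the counting may have split reads among them.

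Because sulfiredoxin acts on peroxiredoxins, the pair was also set against each other within libraries. Per exon length *Srxn1* was 0.0428 ± 0.00070 of *Prdx1* in unstarved libraries (SD, n = 3). This share was 0.0342 ± 0.0017 in Cys-starved and 0.00966 ± 0.00086 in Thr-starved libraries, and the 3 ranges did not overlap.

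*Txnrd1* (ENSMUSG00000020250, chr10:82833951-82897712, + strand) encodes the cytosolic selenoprotein that keeps thioredoxin reduced with NADPH. It was at 262, 281 and 269 CPM in unstarved, 161, 160 and 159 CPM in Cys-starved and 196, 197 and 196 CPM in Thr-starved libraries. The Cys-starved libraries were lowest. The log2 fold change was -0.76 ± 0.025 with Cys starvation (edgeR, adjusted p = 4.9e-16), and 0.167% of the genes with at least 5 CPM, *Txnrd1* included, had this or a lower one. With Thr starvation it was -0.46 ± 0.025 (edgeR, adjusted p = 2.0e-13). Thr-starved cells stood 1.23-fold above Cys-starved cells (log2 fold change 0.30 ± 0.025, edgeR, adjusted p = 6.1e-10).

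*Txn1* (ENSMUSG00000028367, chr4:57943373-57956411, − strand) is thioredoxin itself, the protein that *Txnrd1* serves. Its level was 271, 272 and 272 CPM in unstarved, 242, 241 and 237 CPM in Cys-starved and 178, 175 and 185 CPM in Thr-starved libraries. The order of the starved groups was the reverse of that of *Txnrd1*. The log2 fold change was -0.60 ± 0.024 with Thr starvation (edgeR, adjusted p = 9.7e-16) and -0.18 ± 0.024 with Cys starvation (edgeR, adjusted p = 2.5e-06). Between the starvations it was -0.42 ± 0.024 (edgeR, adjusted p = 7.0e-13). A processed pseudogene, *Txn-ps1*, matches 29.3% of its transcript and held 2.22 CPM in unstarved cells.

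*Gsr* (ENSMUSG00000031584, chr8:33652523-33698163, + strand) encodes glutathione reductase, which returns oxidized glutathione to its reduced form. It was at 177, 182 and 181 CPM in unstarved, 171, 168 and 169 CPM in Cys-starved and 102, 107 and 107 CPM in Thr-starved libraries. The Cys-starved libraries lay just below the unstarved ones and the Thr-starved libraries far below both. *Gsr* changed by -0.77 ± 0.026 on the log2 scale with Thr starvation (edgeR, adjusted p = 4.3e-17) and -0.09 ± 0.025 with Cys starvation (edgeR, adjusted p = 0.0072). The direct difference was -0.68 ± 0.026 (edgeR, adjusted p = 5.0e-16).

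*G6pdx* (ENSMUSG00000031400, chrX:74409483-74429194, − strand) encodes the enzyme that opens the pentose phosphate pathway and yields NADPH for both reductases. It was at 72.1, 77.6 and 76.0 CPM in unstarved, 75.8, 73.4 and 70.2 CPM in Cys-starved and 57.0, 57.1 and 55.6 CPM in Thr-starved libraries. The unstarved and Cys-starved ranges overlapped, and the Thr-starved range lay below both. *G6pdx* changed by -0.41 ± 0.035 on the log2 scale with Thr starvation (edgeR, adjusted p = 5.2e-10). With Cys starvation it was -0.04 (95% interval -0.11 to 0.03, edgeR, adjusted p = 0.40). *Ikbkg* overlaps 418 bases of its exons on the opposite strand and rose by 0.89 on the log2 scale with Thr starvation (edgeR, adjusted p = 1.5e-13). The near-identical *G6pd2* held 0.334 to 0.354 CPM in the 3 group means.

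*Nqo1* (ENSMUSG00000003849, chr8:107388225-107403206, − strand) encodes a quinone reductase and is among the genes most often used to read NRF2 activity. It was at 31.8, 30.7 and 32.2 CPM in unstarved, 23.5, 24.1 and 22.8 CPM in Cys-starved and 17.4, 18.1 and 18.3 CPM in Thr-starved libraries. As with *Srxn1*, the groups formed 3 levels, with the Thr-starved libraries lowest. *Nqo1* changed by -0.81 ± 0.045 on the log2 scale with Thr starvation (edgeR, adjusted p = 2.6e-13) and -0.43 ± 0.043 with Cys starvation (edgeR, adjusted p = 5.5e-08). The starvations differed by -0.39 ± 0.046 (edgeR, adjusted p = 1.2e-07).

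*Hmox1* (ENSMUSG00000005413, chr8:75093621-75100589, + strand) encodes the inducible heme oxygenase, which frees iron from heme and is a target of NRF2, its competitor BACH1 and stress factors of the AA response. It was at 104, 109 and 105 CPM in unstarved, 213, 216 and 218 CPM in Cys-starved and 189, 183 and 196 CPM in Thr-starved libraries. Every starved library was above every unstarved one, and the Cys-starved libraries were highest. The log2 fold change was 1.03 ± 0.028 with Cys starvation (edgeR, adjusted p = 1.4e-17), and 99.7% of the genes with at least 5 CPM, *Hmox1* included, had this or a lower one. With Thr starvation it was 0.84 ± 0.028 (edgeR, adjusted p = 4.0e-17), and 94.3% of these genes had this or a lower one. Thr-starved cells were below Cys-starved cells by -0.19 ± 0.027 on the log2 scale (edgeR, adjusted p = 2.8e-06).

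The ratio of *Hmox1* to *Srxn1*, a pair chosen after their values were seen, sums up how unevenly the targets moved. Per exon length it was 4.76 ± 0.121 in unstarved, 14.6 ± 0.982 in Cys-starved and 42.1 ± 4.23 in Thr-starved libraries (SD, n = 3).

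**Figure D2:**
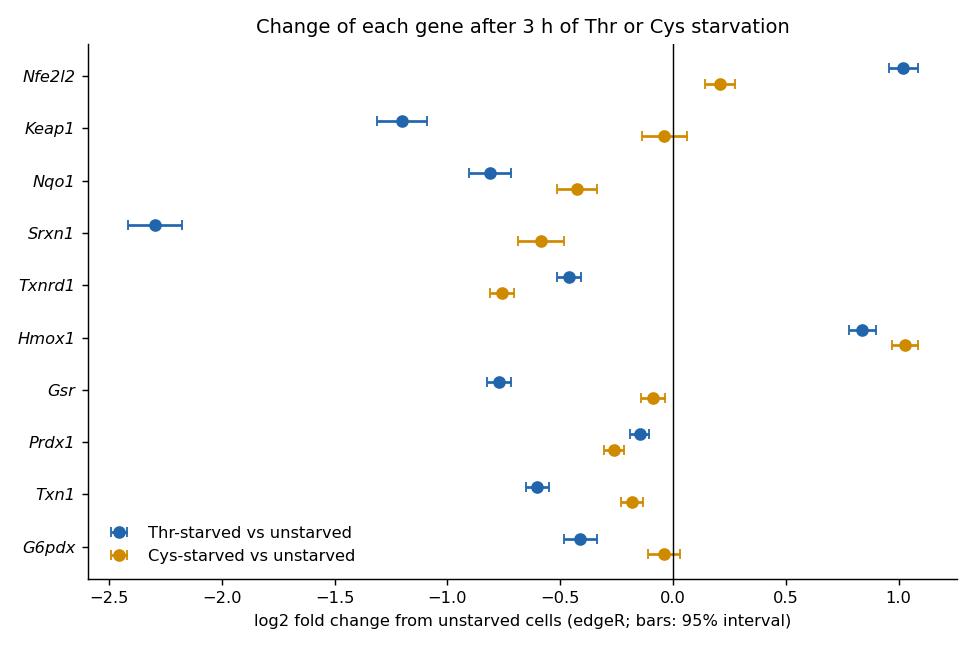
Log2 fold change of each gene from unstarved cells (x axis) with Thr (blue) and Cys (amber) starvation, with bars for the 95% interval of the edgeR fit. *Nfe2l2* and *Hmox1* lie to the right of 0 in both starvations, *Srxn1* lies farthest left with Thr and *Txnrd1* with Cys starvation, and the Cys intervals of *Keap1* and *G6pdx* cross 0.

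**Figure D3:**
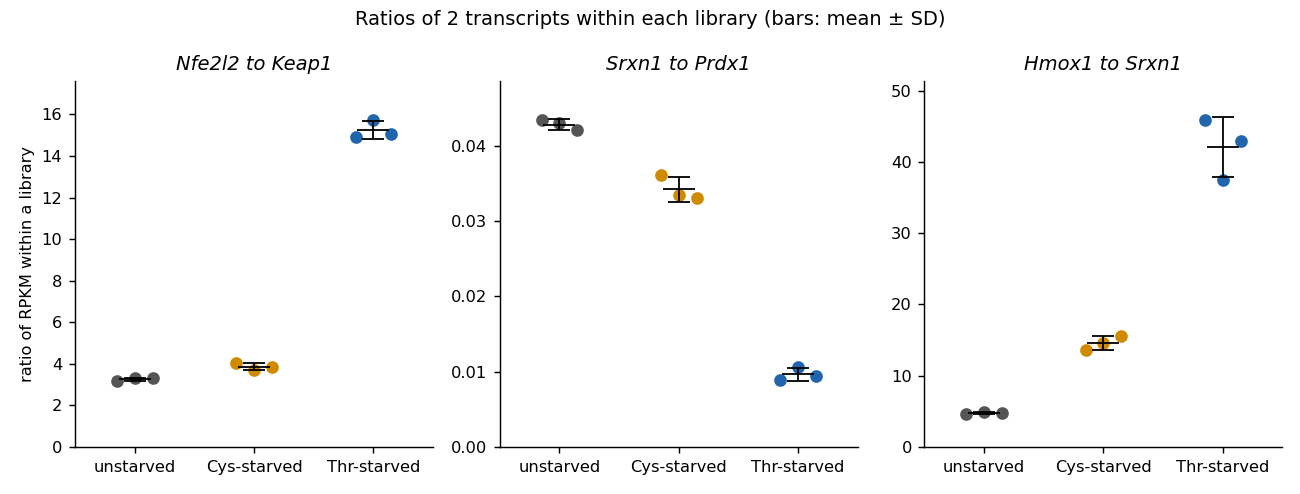
Ratio of RPKM within each library (y axis from 0) for *Nfe2l2* to *Keap1*, *Srxn1* to *Prdx1* and *Hmox1* to *Srxn1* in the 3 groups, with bars for the mean ± SD. In each panel the 3 groups occupy separate ranges, and the Thr-starved libraries are farthest from the unstarved ones. The pair *Hmox1* and *Srxn1* was chosen after its values were seen, so its separation was given by that choice.

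In these deep libraries most expressed genes were called with Thr starvation, so the calls among the 10 genes are read against all genes. With Thr starvation 10 of the 10 genes were called, 2 higher and 8 lower, where 63.0% of all genes tested were called, 31.1% higher and 31.9% lower. Their libraries did not overlap for 10 genes, against 66.5% of all genes. With Cys starvation 8 were called, 2 higher and 6 lower, where 36.3% of all genes were called, 17.5% higher and 18.8% lower, and 8 did not overlap against 46.4%. Between Thr-starved and Cys-starved cells 10 were called, 3 higher (*Nfe2l2*, *Txnrd1* and *Prdx1*) and 7 lower, where 62.0% of all genes were called, 30.4% higher and 31.6% lower, and 10 did not overlap against 65.8%. Among the 11410 genes with at least 5 CPM, where all 10 belong, the share called was 80.6% with Thr, 55.0% with Cys and 80.6% between the starvations. Of these 11410 genes, 4740 were higher and 4459 lower with Thr starvation, and 2803 higher and 3475 lower with Cys starvation. Between the starvations 4990 were higher and 4206 lower. The median log2 fold change of the 10 genes was -0.53 with Thr starvation, beside -0.016 over all genes tested. It was -0.14 with Cys starvation, beside 0.0068, and -0.38 between the starvations, beside -0.018. The share of the 11410 genes at or below a gene's own log2 fold change was also taken. With Thr starvation it was 96.6% for *Nfe2l2*, 2.81% for *Keap1*, 6.53% for *Nqo1* and 7.20% for *Gsr*. For *Txn1*, *Txnrd1*, *G6pdx* and *Prdx1* it was 11.5%, 16.7%, 18.9% and 35.2%. With Cys starvation it was 85.3% for *Nfe2l2*, 2.21% for *Nqo1*, 8.42% for *Prdx1*, 16.2% for *Txn1* and 34.5% for *Gsr*. With a log2 change of 1 or more in either direction also required, the called genes were *Nfe2l2*, *Keap1* and *Srxn1* with Thr, *Hmox1* with Cys, and *Keap1* and *Srxn1* between the starvations. With trends of GC content and transcript length removed, *Nfe2l2* was at 0.94 and *Keap1* at -0.90 with Thr starvation. *Keap1* was then at -0.85 between the starvations. Size factors deposited by the authors put *Hmox1* at 0.99 with Cys starvation. Under the alternatives *Srxn1* ran from -2.35 to -2.24 with Thr starvation and from -1.76 to -1.65 between the starvations.

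Per exon length, the unstarved levels ran from *Prdx1* at 296 ± 2.08 RPKM (SD, n = 3) and *Txn1* at 259 ± 0.556 RPKM down to *Srxn1* at 12.7 ± 0.234 RPKM and *Keap1* at 5.56 ± 0.212 RPKM. Between them came *Gsr* (65.4), *Hmox1* (60.3), *Txnrd1* (38.2), *G6pdx* (24.4), *Nqo1* (20.3) and *Nfe2l2* (18.1), each in RPKM. No neighbours in this order overlapped between libraries. In Cys-starved cells *Hmox1* moved above *Gsr* at 123 RPKM, *G6pdx* and *Nfe2l2* stood on either side of *Txnrd1* (23.7, 20.9 and 22.6 RPKM), and again no neighbours overlapped. In Thr-starved cells *Nfe2l2* reached 36.7 ± 1.16 RPKM, which overlapped *Gsr* at 38.3 ± 1.06 RPKM, and *Srxn1* at 2.58 ± 0.215 RPKM overlapped *Keap1* at 2.41 ± 0.0941 RPKM. These lengths join all annotated exons, so a gene with many isoforms such as *Txnrd1* is placed lower than its main transcript alone would be.

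The wider gene groups are read against the same background as the 10 genes. Over all genes tested, 31.1% rose and 31.9% fell with Thr starvation, and 17.5% rose and 18.8% fell with Cys starvation. Of the 11410 genes with at least 5 CPM, 4740 rose and 4459 fell with Thr starvation, and 2803 rose and 3475 fell with Cys starvation. In either direction, 80.6% and 55.0% of them were called. A group whose share called is near these values is not set apart by its count.

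Of 18 partners and regulators of NRF2, 10 rose and 6 fell with Thr starvation, with a median log2 fold change of 0.19, so that 88.9% were called, beside 63.0% of all genes and 80.6% of those with at least 5 CPM. *Maff*, a small MAF partner of NRF2, rose from 5.06 to 10.7 CPM (1.09 ± 0.090, edgeR, adjusted p = 3.7e-10), and *Pgam5*, a mitochondrial phosphatase that binds KEAP1, rose by 0.69 ± 0.029 (edgeR, adjusted p = 1.7e-15). *Dpp3*, a peptidase that competes with NRF2 for KEAP1, fell by 1.11 ± 0.031 to 71.0 CPM (edgeR, adjusted p = 1.8e-18), and *Bach1*, the repressor that competes at antioxidant response elements, fell by 0.30 ± 0.048 (edgeR, adjusted p = 1.2e-05). With Cys starvation 5 rose and 4 fell, with a median of -0.010, or 50% called beside 36.3% and 55.0%. There *Nfe2l1*, the NRF2 relative that governs proteasome genes, rose by 0.41 ± 0.025 (edgeR, adjusted p = 2.3e-11) and *Pgam5* by 0.31 ± 0.029 (edgeR, adjusted p = 1.7e-08). *Btrc*, a KEAP1-independent route of NRF2 degradation, fell by 0.21 ± 0.042 (edgeR, adjusted p = 0.00033) and *Bach1* by 0.17 ± 0.047 (edgeR, adjusted p = 0.0063).

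Of 17 relatives of thioredoxin and the peroxiredoxins, 4 rose and 5 fell with Thr starvation, and 3 rose and 9 fell with Cys starvation. The medians were 0.013 and -0.15. The share called was 52.9% with Thr starvation, below the 63.0% of all genes and the 80.6% of those with at least 5 CPM, and 70.6% with Cys starvation, beside 36.3% and 55.0%. *Txnip*, which binds and inhibits thioredoxin, rose from 114 ± 0.734 to 493 ± 11.4 CPM with Thr starvation (log2 fold change 2.11 ± 0.025, edgeR, adjusted p = 1.4e-24) and to 242 ± 6.48 CPM with Cys starvation (1.08 ± 0.025, edgeR, adjusted p = 7.5e-19). All 3 groups were separate. *Glrx2*, a mitochondrial glutaredoxin, rose by 0.26 ± 0.064 with Thr and 0.21 ± 0.064 with Cys starvation (edgeR, adjusted p = 0.0013 and 0.012). *Txnrd3*, the thioredoxin glutathione reductase, fell by 1.19 ± 0.074 with Thr and by 0.44 ± 0.068 with Cys starvation (edgeR, adjusted p = 1.9e-12 and 1.8e-05). Glutaredoxin *Glrx* fell by 0.75 ± 0.088 with Thr starvation (edgeR, adjusted p = 1.0e-07), and *Prdx4*, the peroxiredoxin of the endoplasmic reticulum, fell by 0.25 ± 0.041 with Cys starvation (edgeR, adjusted p = 3.7e-05).

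Of 18 genes of glutathione synthesis and use, 2 rose and 15 fell with Thr starvation (median -0.34), and 2 rose and 7 fell with Cys starvation (median -0.090). The share called was 94.4% with Thr, beside 63.0% of all genes and 80.6% of those with at least 5 CPM, and 50% with Cys starvation, beside 36.3% and 55.0%. *Slc7a11*, the cystine importer, rose from 31.2 ± 2.69 to 45.6 ± 0.233 CPM with Cys starvation (0.55 ± 0.058, edgeR, adjusted p = 9.8e-08) and stood at 26.8 ± 2.66 CPM with Thr starvation, where it fell by 0.21 ± 0.061 (edgeR, adjusted p = 0.0045). *Gclc*, the catalytic subunit of the rate-limiting ligase, fell by 0.45 ± 0.031 with Cys and by 0.69 ± 0.032 with Thr starvation (edgeR, adjusted p = 1.8e-10 and 1.1e-14). *Gpx1*, a cytosolic glutathione peroxidase, fell more with Cys starvation (-0.57 ± 0.023, edgeR, adjusted p = 1.1e-14) than with Thr starvation (-0.15 ± 0.022), and the direct difference of 0.41 ± 0.023 passed the test (edgeR, adjusted p = 2.8e-13). *Gpx4*, the peroxidase that removes lipid peroxides, rose by 0.17 ± 0.029 with Thr and fell by 0.14 ± 0.029 with Cys starvation (edgeR, adjusted p = 1.7e-05 and 0.00036). Glutathione synthetase *Gss* and the transferase *Gsta4* fell by 0.76 ± 0.056 and 0.77 ± 0.025 with Thr starvation (edgeR, adjusted p = 4.7e-11 and 3.1e-17). *Hagh*, a glyoxalase, rose by 0.14 ± 0.047 with Cys and fell by 0.21 ± 0.048 with Thr starvation (edgeR, adjusted p = 0.025 and 0.00053).

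Of 16 genes of NADPH supply measured, 3 rose and 10 fell with Thr starvation (median -0.14), and 1 rose and 8 fell with Cys starvation (median -0.093). The shares called, 81.2% and 56.2%, were close to the 80.6% and 55.0% of genes with at least 5 CPM. *Pgd*, which follows *G6pdx* by a step in the pentose phosphate pathway, fell from 167 ± 3.18 to 59.5 ± 1.36 CPM with Thr starvation (-1.48 ± 0.028, edgeR, adjusted p = 1.4e-21) and by 0.29 ± 0.026 with Cys starvation (edgeR, adjusted p = 1.0e-08). *H6pd*, the counterpart in the endoplasmic reticulum, fell by 1.93 ± 0.068 with Thr starvation (edgeR, adjusted p = 1.1e-16). *Me1*, malic enzyme, fell by 0.28 ± 0.047 with Cys and by 0.67 ± 0.049 with Thr starvation (edgeR, adjusted p = 4.7e-05 and 4.3e-11). *Aldh1l2*, which makes mitochondrial NADPH from folate, rose by 1.38 ± 0.070 with Cys and 0.93 ± 0.073 with Thr starvation (edgeR, adjusted p = 8.0e-13 and 1.3e-10), and *Nadk2*, mitochondrial NAD kinase, rose by 0.25 ± 0.030 with Thr and fell by 0.11 ± 0.030 with Cys starvation (edgeR, adjusted p = 1.3e-07 and 0.0049).

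Of 9 other genes of heme and iron handling, 1 rose and 4 fell with Thr starvation (median -0.071), and 0 rose and 4 fell with Cys starvation (median -0.15). The shares called were 55.6% and 44.4%, beside 63.0% and 36.3% of all genes. Both lay below the 80.6% and 55.0% of genes with at least 5 CPM. Of all genes, 31.1% and 17.5% rose. Ferrochelatase *Fech* rose by 0.13 ± 0.049 with Thr starvation (edgeR, adjusted p = 0.021). The endosomal heme transporter *Slc48a1* fell by 1.02 ± 0.073 with Thr and 0.19 ± 0.067 with Cys starvation (edgeR, adjusted p = 3.0e-11 and 0.032). Biliverdin reductase *Blvrb*, which acts after heme oxygenase, fell by 0.71 ± 0.071 and 0.34 ± 0.068 (edgeR, adjusted p = 8.7e-09 and 0.00033).

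Of 17 detoxification and export genes measured, 1 rose and 14 fell with Thr starvation (median -0.39), and 2 rose and 8 fell with Cys starvation (median -0.11). The shares called were 88.2% and 58.8%, beside 80.6% and 55.0% of genes with at least 5 CPM. Catalase *Cat* fell from 60.0 to 26.0 CPM with Thr starvation (-1.21 ± 0.040, edgeR, adjusted p = 3.8e-17). The aldo-keto reductase *Akr1b8* fell by 1.05 ± 0.073 with Thr and by 0.52 ± 0.068 with Cys starvation (edgeR, adjusted p = 1.5e-11 and 2.2e-06), whereas *Akr1a1* rose by 0.47 ± 0.025 and 0.10 ± 0.025 (edgeR, adjusted p = 1.3e-13 and 0.0019). With Cys starvation the prostaglandin reductase *Ptgr1* fell by 0.38 ± 0.062 (edgeR, adjusted p = 3.4e-05) and with Thr starvation by 0.60 ± 0.064 (edgeR, adjusted p = 2.2e-08). The exporter *Abcc1* rose by 0.18 ± 0.034 with Cys starvation and fell by 0.32 ± 0.035 with Thr starvation, to 37.9 CPM from 47.2 CPM (edgeR, adjusted p = 0.00021 and 3.5e-08).

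**Figure D4:**
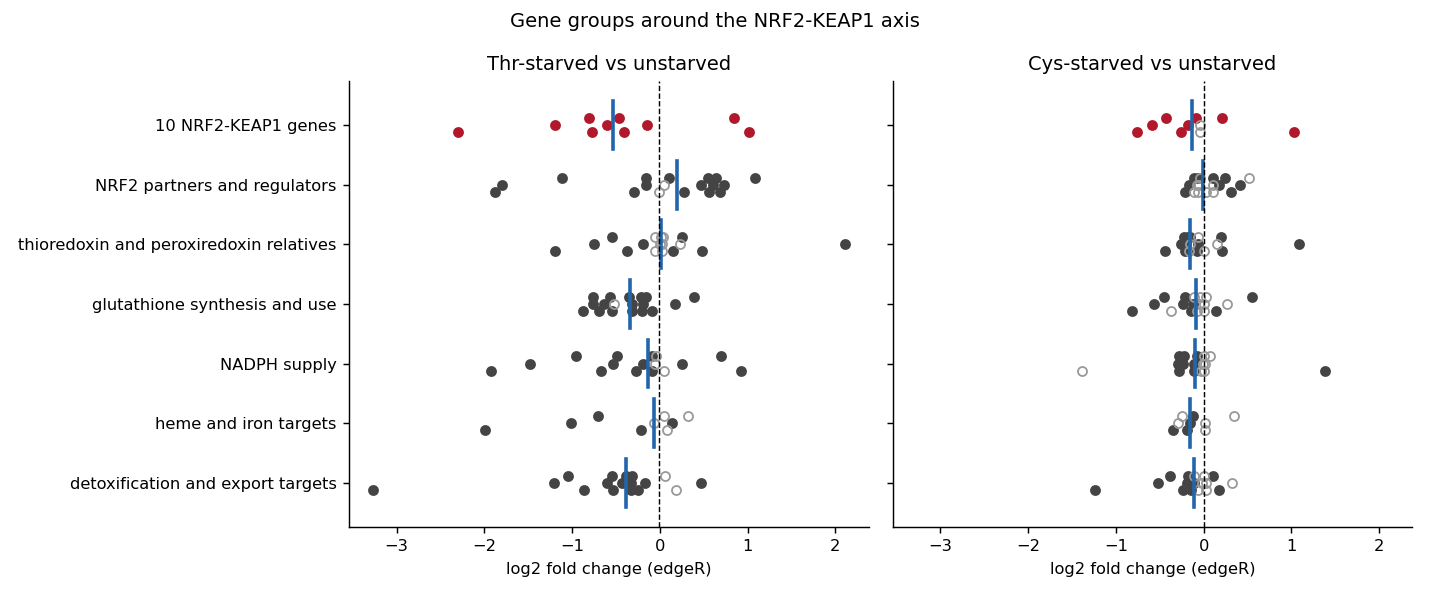
Log2 fold change from unstarved cells (x axis) of each gene of the 7 groups, with Thr starvation in the left panel and Cys starvation in the right. Filled points passed the edgeR test, open points did not, blue bars mark group medians and the dashed line the median of all genes tested. With Thr starvation the NRF2 partners (10 higher, 6 lower) and the thioredoxin relatives (4 higher, 5 lower) go both ways, and *Txnip* at 2.11 is the rightmost point. There 15 of 18 glutathione and 14 of 17 detoxification genes lie lower. Of all genes tested 31.9% do, and of the 11410 genes with at least 5 CPM, 4459 do.

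By the distance between log2 levels over the 9 libraries, centred per gene, the 3 genes nearest to *Nfe2l2* among the 11410 genes with at least 5 CPM were *Lrpap1* (distance 0.0799), *Tra2b* (0.0867) and *Cstf2t* (0.0933). Those nearest to *Keap1* were *Kdm1b* (0.141), *Plcd3* (0.159) and *Klf13* (0.164). *Srxn1* was nearest to *Dhcr7* (0.163), *Sfn* (0.232) and *Grb7* (0.270), and *Hmox1* to *Cth* (0.168), *Slc1a4* (0.184) and *Gpt2* (0.191). *Dhcr7*, which encodes a late enzyme of cholesterol synthesis, had log2 fold changes of -2.26 with Thr and -0.49 with Cys starvation, beside -2.30 and -0.58 for *Srxn1*. *Cth*, which encodes the enzyme that makes Cys by trans-sulfuration, had 0.81 with Thr and 0.94 with Cys starvation, beside 0.84 and 1.03 for *Hmox1*. None of the 10 genes was among these.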

How the data were processed

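Poly(A) RNA of 9 E14 samples was sequenced from directional libraries. Per the submitters' processing notes, reads were checked with FastQC 0.11.7, mapped to GRCm38 with STAR 2.7.4a and counted per gene with HTSeq. The authors deposited these counts without normalization, beside a table of signal values that the authors made by dividing the counts by a size factor per library (DESeq2, R 4.0.3), used here only as an alternative scaling. How HTSeq treated strand and overlapping genes is not given in the sources used here. Even counts made up 67.8% of counts from 1 to 20. The reason was not tested, so each count need not stand for a separate sequenced molecule. With counts halved, 10 of the 10 genes were called with Thr, 8 with Cys and 10 between the starvations. No column was left unmapped.

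Counts were tested in R 4.3.3 with edgeR 4.0.16 (TMM, quasi-likelihood F test, all 9 libraries in 1 fit, genes with at least 1 count in total, Benjamini-Hochberg adjustment per comparison). SE is the log2 fold change divided by the square root of F. RPKM used the joined exons of GENCODE on GRCm38, which named 20171 of the 20189 genes. Near-identical sequence was searched with BLAST at 90% identity or more. The scripts were tested on simulated data. The members and gene lists were chosen with earlier results of these data known. *Me3*, *Ugt1a6a*, *Ugt1a7c*, *Osgin1*, *Postn*, *Lum*, *Dcn* and *Afp* were not analysed here. Besides the 10 genes, each list contributes at most the 2 called genes with the largest rise and the 2 with the largest fall per starvation, at a mean of 5 CPM or more, and the likeness of patterns used log2(CPM + 0.5). The alternatives were RLE and deposited size factors, DESeq2 1.42.0, filterByExpr, only the 2 groups compared, the replicate block, a log2 change of 1 or more, removal of GC and length trends, each fit without 1 library, and, added after seeing the data, counts halved.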

Additional observations from a re-analysis of the deposited data

How the results depend on the processing

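Single genes were recomputed under 17 alternatives per comparison, the stricter call not counted. Of the 17, 3 left out a library of the group not compared and could hardly move a value. Of the 510 values so obtained, 509 kept their direction and their side of the threshold. The exception was *Prdx1* between Thr-starved and Cys-starved cells, which turned to -0.0438 (edgeR, adjusted p = 0.039) with trends of GC content and transcript length removed, and the cause was not tested. Requiring also a log2 change of 1 or more in either direction left 2668, 296 and 2303 genes with Thr, with Cys and between the starvations, of which 3, 1 and 2 were among the 10 genes, by construction of a stricter call. The deposited size factors moved the median of all genes by -0.042 with Cys starvation and changed its calls from 3523 higher and 3790 lower to 2787 higher and 4786 lower. They gave 6756 higher and 5862 lower calls between the starvations, beside 6123 and 6365.

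Samples with the same number did not deviate together. The correlations across genes were 0.106, -0.073 and 0.010 between Thr-starved and unstarved, -0.060, -0.049 and -0.079 between Cys-starved and unstarved, and -0.135, -0.042 and -0.244 between Thr-starved and Cys-starved libraries. The fit with the replicate block called 12488, 7063 and 12334 genes and 10, 8 and 10 of the 10 genes. Fits without 1 library changed no call among the 10 genes. With 3 libraries per group the spread itself is known from few samples, and each of the 10 genes had at least 325 counts per library.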
